A study of Mus musculus with 4 samples.

Results

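Transcripts of the RhoA branch of small GTPases and of the ROCK kinases were examined in mouse mammary tumour cells labelled as with or without the gene for the p21-activated kinase Pak1. The members were the genes Rhoa, Rhob, Rhoc, Rnd1, Rnd3, Rock1, Rock2, Arhgdia and Arhgdib, chosen by name, and every non-control probe with one of these names was taken. This gave 19 probes of 9 genes, of 39429 probes and 31829 probe-named genes on the array, and the brightest probe of a gene over all 4 arrays stood for it. MMTV-Neu mice, whose Neu oncogene (Her2, gene Erbb2) is expressed in mammary epithelium from a viral MMTV promoter, had supplied the tumours. There were 2 samples labelled Pak1-/- and 2 labelled Pak1+/+. All 4 were Neu positive, had been kept in low calcium medium with horse serum, deprived of serum for 3 h and then given EGF for 15 min, so that no array shows the cells without EGF. Each group came from separate tumours by the series design, while the methods speak of cell lines. P-values therefore measure the spread between these 2 samples only.

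GTPases of the RhoA family are switches that are active when bound to GTP and silent when bound to GDP. RhoA, RhoB and RhoC bind ROCK1 and ROCK2, which phosphorylate the myosin phosphatase, myosin light chain and LIM kinase and so build stress fibres and contractile tension. Rnd1 and Rnd3 hold GTP permanently and oppose RhoA signalling. Rnd3 also binds ROCK1, and Rnd proteins act through GTPase activating proteins. The GDP dissociation inhibitors encoded by Arhgdia and Arhgdib hold prenylated GTPases of this family in the cytosol. PAK kinases are effectors of the sister GTPases Rac and Cdc42. The arrays measure transcripts, and neither GTP loading nor ROCK activity was measured here.

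The sequence before the start site is shown for Rhob, Rhoc and Rnd3, the members whose transcripts were higher in the arrays labelled Pak1-/- (values below). Each window holds the 250 bases before a RefSeq start on GRCm38.p6, read 5′ to 3′ on the strand of the gene. Capitals mark every match, on either strand, to the CArG box (the site of serum response factor), CCAAT (the box bound by NF-Y), TATAAA (a core promoter element), GGGCGG (an Sp1 motif) or TGACGTCA (the cAMP response element). The table held windows for 7 of the 9 members.
Rnd3, chr2:51149112-51149361, minus strand: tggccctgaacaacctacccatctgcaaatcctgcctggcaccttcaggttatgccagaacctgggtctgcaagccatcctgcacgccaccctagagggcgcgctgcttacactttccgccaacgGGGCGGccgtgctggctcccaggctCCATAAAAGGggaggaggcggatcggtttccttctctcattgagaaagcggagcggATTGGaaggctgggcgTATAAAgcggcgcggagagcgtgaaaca
Rhob, chr12:8500010-8500259, minus strand: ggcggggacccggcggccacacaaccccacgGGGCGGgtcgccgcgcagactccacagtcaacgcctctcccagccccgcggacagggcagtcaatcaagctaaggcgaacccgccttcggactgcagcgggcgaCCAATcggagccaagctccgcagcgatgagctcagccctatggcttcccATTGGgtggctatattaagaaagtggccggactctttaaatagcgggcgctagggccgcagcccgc
Rhoc, chr3:104788784-104789033, plus strand: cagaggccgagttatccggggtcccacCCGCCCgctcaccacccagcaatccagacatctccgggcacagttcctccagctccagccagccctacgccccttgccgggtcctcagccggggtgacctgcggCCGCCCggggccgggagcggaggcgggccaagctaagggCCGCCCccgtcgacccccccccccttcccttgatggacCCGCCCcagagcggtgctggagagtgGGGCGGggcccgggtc
The window of Rnd3 held a CArG box at bases −100 to −91 counted back from the start, a TATAAA at −28 to −23, a CCAAT on the opposite strand at −44 to −40 and a GGGCGG at −125 to −120. The window of Rhob held CCAAT at −115 to −111 and, on the opposite strand, at −66 to −62, with 1 GGGCGG. The window of Rhoc held 5 matches to GGGCGG and none to the other motifs. Of 32851 windows of this length, 1.47% held a CArG box, 33.8% a CCAAT, 12.4% a TATAAA, 32.7% a GGGCGG and 1.55% a TGACGTCA. No other member window, of the 11 taken, held a CArG box, and Rock1 was not among them. These matches describe letters only.

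Median spot intensity was alike across the arrays, at 322 to 331. The share of probes well above background, a flag of the scanner software, differed more. It was 70.4% and 68.2% in the arrays labelled Pak1-/- and 67.7% and 62.2% in those labelled Pak1+/+. The arrays labelled Pak1-/- lay at positions 1 and 2 of 1 slide and those labelled Pak1+/+ at positions 3 and 4, so position and genotype cannot be told apart. The Pak1 probe read 12.21 and 12.25 against 12.04 and 12.04 (normalized log2 intensity), 0.19 higher in the arrays labelled Pak1-/- (limma adjusted p = 0.070), so it does not bear the labels out, and every direction is given by them. The epithelial markers Krt8, at 18.09 to 18.69, and Epcam, at 15.01 to 15.33, were bright on all 4 arrays, and 7 of 8 epithelial markers were well above background on all of them. Genes of this list went both ways. Cdh1 (1.19), Krt8 (0.57) and Krt18 (0.27) were higher in the arrays labelled Pak1-/-, Krt7 (−1.10) was lower and 4 were not past the threshold. The share of the list past the threshold was close to the 51.0% of all genes tested, where 22.8% were higher and 28.2% lower. These calls are therefore not by themselves particular to epithelial markers.

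Of the 9 members, 3 (Rhob, Rhoc and Rnd3) were higher in the Pak1-/- arrays and 4 (Rnd1, Rock1, Rock2 and Arhgdib) lower at an adjusted p under 0.05 in limma, while Rhoa and Arhgdia did not pass. Over all 21961 genes tested, 51.0% passed, 22.8% higher and 28.2% lower, so a change in most members is not by itself particular to them. Changes of at least 2-fold were found in 4 members (Arhgdib, Rnd3, Rhoc and Rock2), where 12.6% of all genes tested had one. The groups did not overlap for any of the 9 members, nor for 77.6% of all genes with 4 values. The median log2 difference of the members was −0.16, and that of all genes tested was −0.055. By probe, 18 of the 19 were well above background on all 4 arrays and tested, of which 5 were higher, 10 lower and 3 not past the threshold, while 51.9% of all tested probes passed in one direction or the other.

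**Figure D1:**
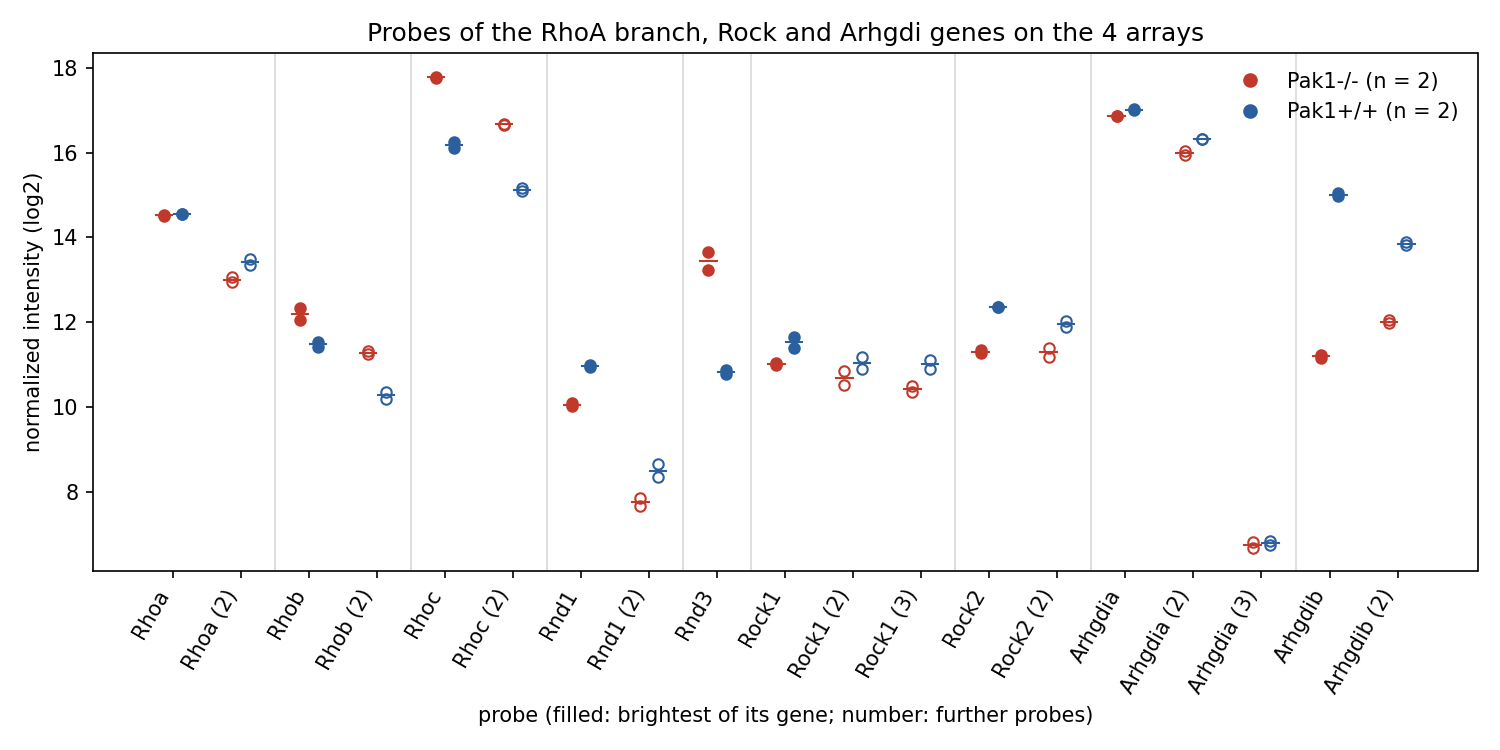
Normalized log2 intensity of all 19 probes on the 4 arrays, grouped by gene, with the arrays labelled Pak1-/- in red and Pak1+/+ in blue and a line at each mean of 2 arrays. Filled points are the brightest probe of a gene. Rhoc and Rnd3 lie higher in red and Arhgdib higher in blue, with the points of a group close together. The brightest Rhoa probe lies near 14.5 in both groups, and the second Rhoa probe lies lower in red.

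Of the classical GTPases, Rhoc and Rhob were higher by both of their probes, and Rhoa had no clear direction. Rhoc, the member most often tied to invasion and metastasis, was the most raised of them. Its brightest probe (mm9 chromosome 3, 104597300 to 104597359) read 17.79 and 17.75 in the arrays labelled Pak1-/- and 16.11 and 16.26 in those labelled Pak1+/+ (normalized log2 intensity). Both arrays labelled Pak1-/- were high, and the groups stood well apart. The scanner's own spot intensities were 188241 and 216108 against 76627.5 and 80651.4, with a local background of 35.0 to 42.5. The group means, 17.77 ± 0.03 and 16.18 ± 0.10 (SD over 2 arrays), differed by 1.59 (SE 0.08, limma adjusted p = 0.00037), or 3.00-fold. The second Rhoc probe, which lies close by on the genome (104597203 to 104597262), gave 1.54 (SE 0.07, adjusted p = 0.00026).

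Rhob is an early response gene that growth factors and stress induce, and its protein sits on endosomes as well as at the plasma membrane. Its brightest probe (chromosome 12, 8504751 to 8504810) read 12.34 and 12.05 against 11.54 and 11.41. The groups did not overlap, and the 2 arrays labelled Pak1-/- lay farther from each other than the 2 labelled Pak1+/+. The difference was 0.72 (SE 0.12, adjusted p = 0.0088). The other Rhob probe (8506305 to 8506364) read 11.32 and 11.25 against 10.20 and 10.36, a difference of 1.00 (SE 0.09, adjusted p = 0.0013). Since all cells had been given EGF for 15 min, a resting level of Rhob was not measured.

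Rhoa, the founding member, was nearly level by its brightest probe and lower by its second. The brightest probe (chromosome 9, 108239660 to 108239719) read 14.50 and 14.54 against 14.56 and 14.55. The difference was −0.03 (SE 0.07, 95% interval −0.21 to 0.14, adjusted p = 0.69). The second probe (108239913 to 108239972) read 12.95 and 13.07 against 13.48 and 13.36, a difference of −0.41 (SE 0.09, adjusted p = 0.016). The sign of the first changed under cyclic loess normalization (0.062), so no direction is given for Rhoa as a gene.

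The Rnd genes moved in opposite directions. Rnd3 (RhoE), which binds ROCK1 and opposes stress fibres, had 1 probe (chromosome 2, 50985995 to 50986054). It read 13.66 and 13.24 in the arrays labelled Pak1-/- and 10.78 and 10.89 in those labelled Pak1+/+. The group means, 13.45 ± 0.30 and 10.83 ± 0.07 (SD over 2 arrays), differed by 2.62 (SE 0.16, adjusted p = 0.00052), or 6.14-fold. It had the greatest rise of the 9 members, and its interval ran from 2.20 to 3.04. Rnd1, which binds plexins and promotes loss of adhesion, was lower: its brightest probe (chromosome 15, 98500319 to 98500378) read 10.03 and 10.10 against 10.96 and 10.99. The difference was −0.91 (SE 0.07, adjusted p = 0.00095), and the second Rnd1 probe gave −0.74 (SE 0.13, adjusted p = 0.010). Rnd2, the remaining gene of this subfamily, was also lower, at 10.32 and 10.64 against 11.13 and 11.07 (difference −0.62, SE 0.12, adjusted p = 0.014), a call that did not hold without Pak1+/+ replicate 1 (−0.59, adjusted p = 0.054, range 0.0094 to 0.054 over the alternatives).

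Both ROCK kinase genes were lower in the arrays labelled Pak1-/-. Rock2 (chromosome 12, 16994437 to 16994496) read 11.36 and 11.27 against 12.35 and 12.37, a difference of −1.05 (SE 0.07, adjusted p = 0.00073), with a spread within each group far below the gap. Its second probe (16984727 to 16984785) gave −0.67 (SE 0.11, adjusted p = 0.0076). Rock1 was less clear, since 1 array labelled Pak1+/+ was closer to the other group. Its brightest probe read 11.040 and 11.003 against 11.659 and 11.394, a difference of −0.51 (SE 0.11, adjusted p = 0.018). The other Rock1 probes gave −0.58 (SE 0.11, adjusted p = 0.011) and −0.36 (SE 0.16, 95% interval −0.77 to 0.05, adjusted p = 0.12). The call for the brightest probe was lost without Pak1-/- replicate 1 (−0.52, adjusted p = 0.075), without Pak1-/- replicate 2 (−0.49, 0.083) and without Pak1+/+ replicate 1 (−0.37, 0.059), with adjusted p from 0.012 to 0.083 over the alternatives.

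**Figure D2:**
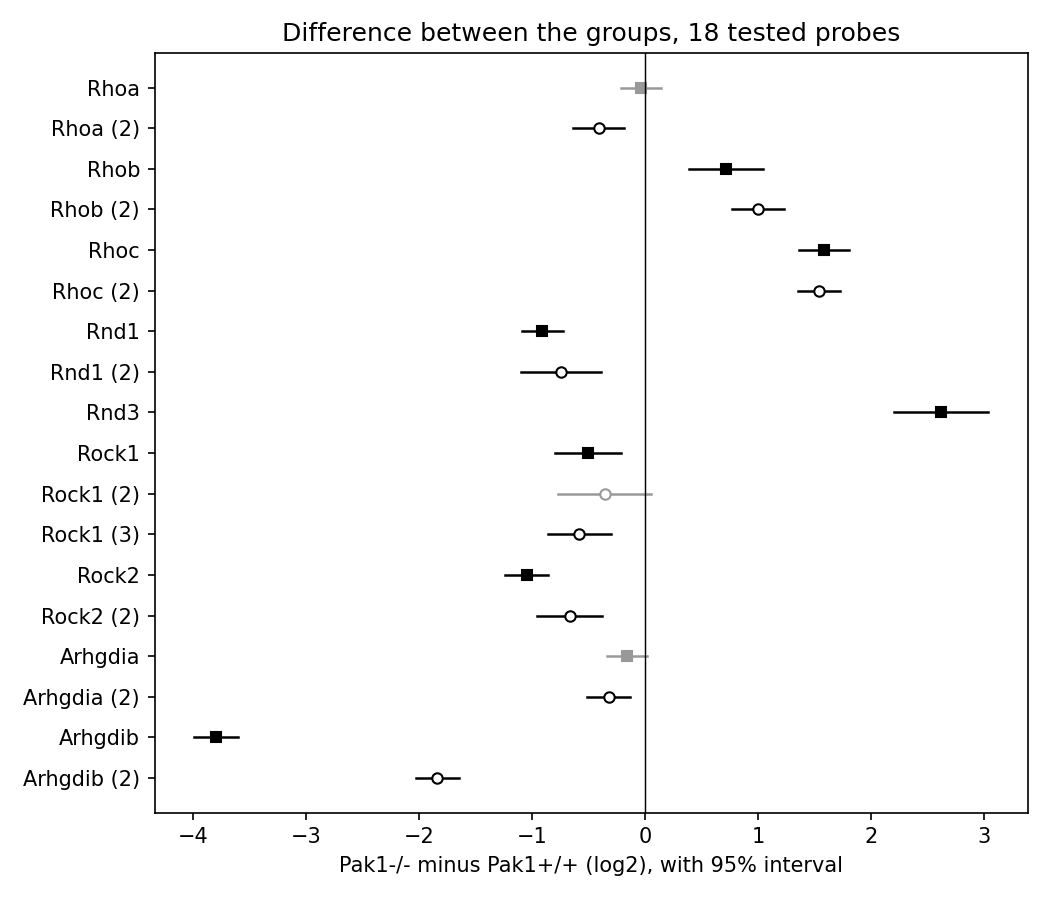
Log2 difference between the groups (Pak1-/- minus Pak1+/+) with its 95% interval for the 18 tested probes, squares for the brightest probe of a gene and open circles for its other probes. Black marks an adjusted p under 0.05 and grey a probe that did not pass. The Rhob, Rhoc and Rnd3 probes lie right of 0 and those of Rnd1, Rock2 and Arhgdib left of it.

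Arhgdib, which encodes the GDP dissociation inhibitor RhoGDI2 (GDI beta), had the greatest change of the members. Its brightest probe (chromosome 6, 136872241 to 136872300) read 11.17 and 11.24 in the arrays labelled Pak1-/- and 15.04 and 14.97 in those labelled Pak1+/+. The spot intensities were 2245 and 2505 against 35388 and 32021, over a local background of 43.0 to 47.5. The group means, 11.21 ± 0.05 and 15.01 ± 0.05 (SD over 2 arrays), differed by −3.80 (SE 0.07, adjusted p = 5.4e-05), or 13.9-fold lower. The second probe (136872602 to 136872661) read 11.97 and 12.05 against 13.88 and 13.81, a difference of −1.84 (SE 0.07, adjusted p = 0.00019), or 3.58-fold. Both probes were lower in the arrays labelled Pak1-/-, but the size depended on the probe. Taken as the mean of both, the difference was −2.82. Arhgdia, the widely expressed RhoGDI1, changed little: it read 16.85 and 16.85 against 17.02 and 17.01, a difference of −0.16 (SE 0.07, 95% interval −0.34 to 0.01, adjusted p = 0.10). Its second probe passed at −0.32 (SE 0.07, adjusted p = 0.020), as did the brightest one with either 75th percentile scaling (−0.42 and −0.41) and the mean over probes (−0.24). The remaining Arhgdia probe, at 6.69 to 6.85, was not well above background on any array. Arhgdig, the third GDI gene, was lower by −0.72 (SE 0.07, adjusted p = 0.0021).

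Arhgdib is best known from blood cells, so leukocyte markers were set beside it. Of 12 leukocyte markers, 7 were well above background on all 4 arrays, and Laptm5, Lyz2 and Tyrobp were so on none. Their summed level, on the log2 scale, was 15.71 to 16.22 in the arrays labelled Pak1-/- and 15.46 to 15.60 in those labelled Pak1+/+. This sum follows mostly a single probe, that of Itgam, at 15.20 to 16.07. Among the 8 tested, 3 were lower and none higher: Coro1a by −0.93, Ptprc (CD45) by −0.45, at 7.14 to 7.60 on single arrays, and Fcer1g by −0.37. The 37.5% past the threshold was below the 51.0% of all genes tested. Of the 5 that did not pass, Itgam (0.49), Cd3e (0.25) and Csf1r (0.12) had differences above 0 and Cd68 (−0.20) below it. Cd52 was not well above background in the arrays labelled Pak1+/+ and passed the filter on dim probes only through the others, so no p or direction is given for it. In bulk samples fewer cells of a type and less RNA per cell cannot be told apart, and the part of leukocytes in the Arhgdib values was not tested.

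Where a gene had several probes, the gap between them on the same array showed how far they moved together. Such a gap has no meaning as a level, since probes differ in brightness, and its change between the groups alone was read. For Arhgdib the gap was −0.80 on both arrays labelled Pak1-/- and 1.16 on both labelled Pak1+/+. This change, −1.96 on the log2 scale, was the widest among the 9 probe pairs. Rock2 had gaps of −0.05 and 0.09 against 0.46 and 0.34, and Rhoa 1.55 and 1.47 against 1.08 and 1.19. The gaps of the other pairs changed by −0.28 (Rhob) to 0.16 (Arhgdia). Gaps between probes were described and not tested.

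**Figure D3:**
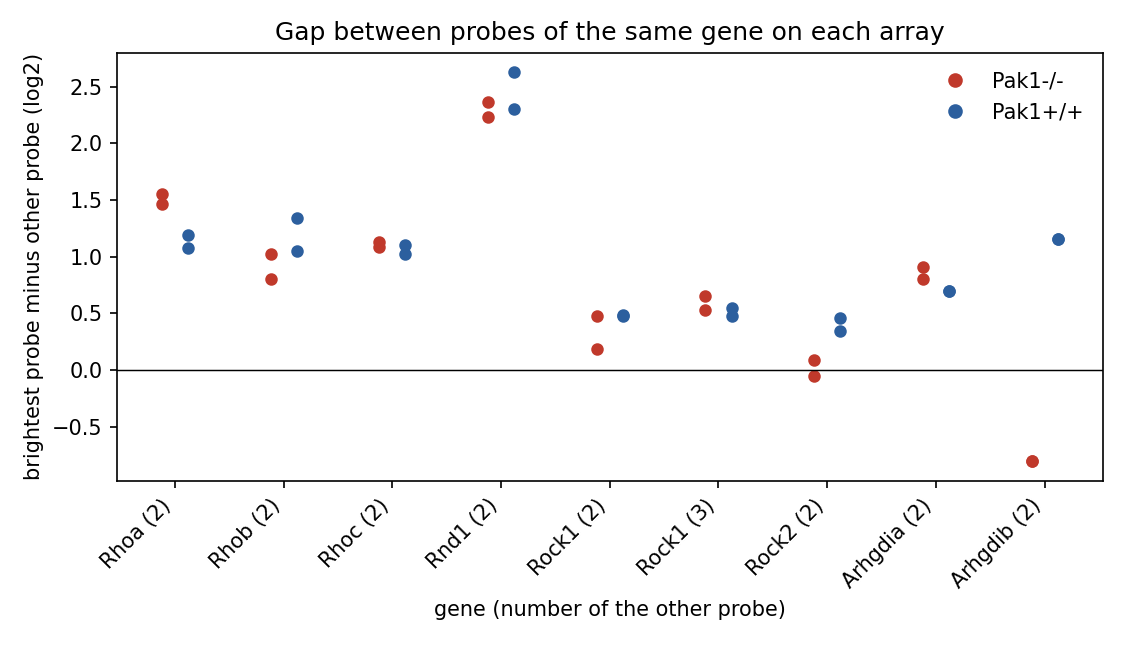
Log2 gap between the brightest probe of a gene and each of its other tested probes, on each of the 4 arrays (red Pak1-/-, blue Pak1+/+). The gap of Arhgdib is −0.80 in red and 1.16 in blue, while the Rhoc gaps of both groups lie between 1.02 and 1.13.

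The other genes around the RhoA switch were described by role, over 106 genes in 7 lists, of which 105 were tested. Of these, in limma, 44 were higher in the Pak1-/- arrays and 25 lower (65.7%, against 51.0% of all genes tested), with a median log2 difference of 0.18. The 44 and the 65.7% include Dlc1, which was dim in the arrays labelled Pak1+/+ (see the GAPs below). The count of lower genes was 16 without Pak1+/+ replicate 1. Among the other genes of the GTPase family 4 of 12 were higher and 3 lower, or 58.3% past the threshold, near the 51.0% of all genes tested. Rhoq (TC10) rose by 1.29 (SE 0.07) and Rhoj by 1.08 (SE 0.07), both GTPases close to Cdc42. Rhou and Rhobtb1 rose by 0.69 and 0.42, and Rhobtb2 and Rhobtb3 were lower, like Rnd2, with differences of −0.87 and −0.35. Rhobtb3 no longer passed when Pak1+/+ replicate 1 or 2 was left out (adjusted p = 0.073 and 0.063, range 0.0090 to 0.073 over the alternatives). Without Pak1+/+ replicate 1, the count of lower genes in this list was 1. The GTPases Rhod, Rhof, Rhog, Rhoh and Rhov did not pass.

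Exchange factors (GEFs) load GTP onto RhoA, and those that act on RhoA went both ways. Of 16, 8 were higher and 6 lower (87.5% past the threshold, against 51.0% of all genes tested, with 22.8% higher and 28.2% lower). The highest were Plekhg5 (1.24, SE 0.12), Arhgef2 (GEF-H1, released from microtubules; 0.89, SE 0.08) and Arhgef10l (0.83, SE 0.10). A second Plekhg5 probe did not pass (0.093). The lowest were Arhgef10 (−1.75, SE 0.08), Mcf2l (−1.70, SE 0.10) and Ect2, the exchange factor of cytokinesis (−0.62, SE 0.08). Arhgef10 read 7.35 and 7.22 against 9.06 and 9.01. The adjusted p of each was at most 0.0040.

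The GTPase activating proteins (GAPs), which end the signal, also went both ways, with 5 of 17 higher and 8 lower (76.5% past the threshold, against 51.0% of all genes tested). The share that was higher was near the 22.8% of all genes. Stard8 (DLC3) read 11.10 and 10.66 against 8.83 and 9.19, a difference of 1.87 (SE 0.20, adjusted p = 0.0022). Its relative Dlc1 read 8.82 and 8.51 against 6.85 and 6.73 and was not well above background in the arrays labelled Pak1+/+, which makes it at least 3.30-fold higher in the others. It passed the filter on dim probes only through the group where it was high, so no p is given, though the 5 and the 76.5% include it. Among probes well above background on all 4 arrays, 4 genes of the list were higher, as were 44 of all lists. Stard13 (DLC2), a relative of Stard8 and Dlc1, was lower, at 9.26 and 9.16 against 10.78 and 10.76 (−1.56, SE 0.07, adjusted p = 0.00029). The DLC genes thus did not move together. Arhgap18 (−0.83) was also lower, and Arhgap28 (0.90), Myo9b (0.49) and Arhgap29 (0.35) higher. For Arhgap28 another probe passed in the opposite direction (−0.54), so it is uncertain. The list had 5 lower genes without Pak1+/+ replicate 1 and 3 higher genes without Pak1+/+ replicate 2. Myo9b lost its call without Pak1+/+ replicate 1 or 2 (adjusted p = 0.067 and 0.060, range 0.0089 to 0.067 over the alternatives).

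Enzymes and carriers that handle these GTPases were mixed, with 2 of 10 higher and 3 lower, and the 5 of 10 past the threshold were close to the 51.0% of all genes tested. Rap1gds1 (SmgGDS), a chaperone of newly made small GTPases, rose by 0.53 (SE 0.07, adjusted p = 0.0044). Icmt, which methylates the prenylated end, was higher by its brightest probe (0.50, SE 0.08), but 2 other probes did not pass (−0.14 and 0.047). The farnesyltransferase subunit Fntb was lower by −1.10 (SE 0.12, adjusted p = 0.0021), and Fnta by −0.31 (SE 0.07, adjusted p = 0.022), a call that held under 10 of 15 alternatives.

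Effectors of RhoA other than ROCK showed 4 of 12 tested genes higher and 3 lower, or 58.3% past the threshold, near the 51.0% of all genes tested. The formin Diaph3 (0.78, SE 0.10) and the kinase Pkn2 (0.38, SE 0.08) were higher, as was the kinesin-binding protein Ktn1 (0.52, SE 0.07). Rhpn1 (rhophilin) read 8.11 and 8.37 against 10.32 and 10.26, a difference of −2.05 (SE 0.11, adjusted p = 0.00039). Daam1 (−0.45) and the cytokinesis kinase Cit (−0.40) were lower. Daam1 no longer passed when Pak1-/- replicate 2 (adjusted p = 0.052) or Pak1+/+ replicate 1 (0.059) was left out, and its adjusted p ran from 0.0076 to 0.059 across alternatives. The call of Cit held under 10 of 15 alternatives, and 1 gene of the list was lower without Pak1+/+ replicate 1. Of 8 markers of cycling cells, 7 were lower as well, where 28.2% of all genes tested were lower, and the 8 differences ran from −1.08 to −0.40, with Ect2 and Cit in the same range. The part of cell division in their values was not tested.

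Downstream of ROCK, the actomyosin genes that passed were mostly higher, while Rock1 and Rock2 were lower. Of 22 ROCK substrates and actomyosin genes, 9 were higher and 2 lower, with a median log2 difference of 0.23, against −0.055 over all genes tested. The 11 of 22 past the threshold were close to the 51.0% of all genes, of which 22.8% were higher and 28.2% lower. The myosin light chain Myl9 read 10.03 and 9.35 against 8.34 and 8.32 (1.36, SE 0.23, adjusted p = 0.0087). The myosin light chain kinase Mylk rose by 1.13 (SE 0.10). Cfl2 (−0.54) and Dpysl2 (−0.45) were lower. The LIM kinases, which carry the ROCK signal to cofilin, did not pass: Limk1 gave −0.24 (adjusted p = 0.096) and Limk2 −0.11 (adjusted p = 0.49).

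RhoA activity frees the coactivators MRTF-A and MRTF-B (named Mkl1 and Mkl2 on the array) from G-actin to act with serum response factor (Srf). Of 16 genes for these factors and their targets, 12 were higher and none lower, where 22.8% of all genes tested were higher, and the median was 0.84 against −0.055 over all genes. Srf itself rose by 1.01 (SE 0.15, adjusted p = 0.0059), Mkl2 by 0.98 and Mkl1 by 0.68. Cyr61 read 17.34 and 16.75 against 14.76 and 14.94 (2.19, SE 0.22, adjusted p = 0.0017), and Ctgf 17.74 and 17.20 against 15.77 and 15.95 (1.61, SE 0.20, adjusted p = 0.0032). Acta2, smooth muscle actin, was higher by 1.69 (SE 0.19, adjusted p = 0.0026). Tagln, another smooth muscle gene, did not pass (−0.20, adjusted p = 0.13). Cnn1 was well above background on 2 of the 4 arrays, too dim to read a difference. Actb and Actg1 were saturated on all 4 arrays, so no difference could be read there. Within the group labelled Pak1-/-, Cyr61, Ctgf, Acta2, Srf, Myl9 and Rnd3 were all higher on replicate 1 than on replicate 2. Tagln (12.68 against 12.86) and the members Rhoa, Rnd1 and Arhgdib were lower on replicate 1. These genes were picked after their values were seen, and a shared movement was not tested.

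Fibroblasts carry high levels of several of these genes, so their markers were set beside the list. Of 9 fibroblast markers 3 were well above background on all 4 arrays, and Col3a1, Dcn, Lum and Pdgfrb on none. Their summed level was 10.71 and 10.86 on the log2 scale in the arrays labelled Pak1-/- and 10.35 and 10.90 in those labelled Pak1+/+. The 2 Pak1+/+ sums differ mostly through the single probe of Fap, at 9.37 on replicate 1 and 6.57 on replicate 2. Markers too dim to test also enter each sum. Of the 4 tested, Col1a1 was higher (1.12, adjusted p = 0.0051), or 25.0% past the threshold against 51.0% of all genes tested. Fap (0.24), Col1a2 (0.025) and Pdgfra (−0.16) did not pass. The part of fibroblasts in the values of the list was not tested.

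**Figure D4:**
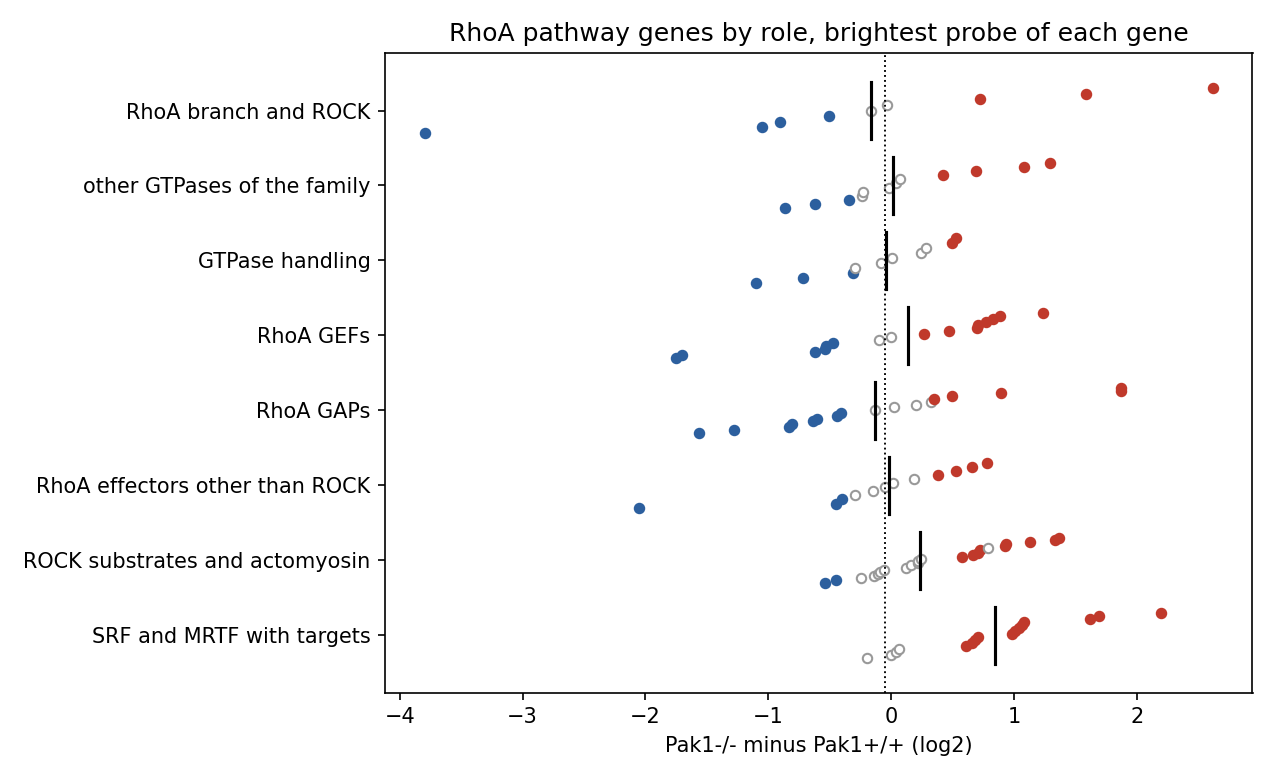
Log2 difference (Pak1-/- minus Pak1+/+) of the 9 members and of the 105 tested pathway genes by role, with the brightest probe of each gene. Filled points passed an adjusted p of 0.05 (red higher, blue lower), open grey points did not, bars are list medians and the dotted line is the median of all genes (−0.055). The filled points include Dlc1, which was dim in the arrays labelled Pak1+/+. The SRF and MRTF genes lie to the right, with a median of 0.84, while GEFs and GAPs spread both ways.

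The genes whose profile over the 4 arrays lay nearest to that of a member, after each profile was centred on its own mean, were drawn from 19105 other genes. Nearest to Rnd3 were Mfi2, Uba7 and Oas3, at Euclidean distances of 0.065 to 0.11 on the log2 scale. For Rhoc they were H2-Q10, Anxa5 and Inhbb (0.017 to 0.055), for Arhgdib Thrsp, Selenbp1 and Faim2 (0.10 to 0.13), and for Rock2 AK046125, NAP114472-1 and Nop2 (0.027 to 0.032), in the names of the array. A profile of 2 groups is set largely by the group difference, so these genes differ between the groups much as their member does by the way they were chosen.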

How the data were processed

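Total RNA of 4 samples was hybridised, with Cy3 as the only dye, to Agilent mouse arrays. Spot intensities in the deposited scanner files come, per the file headers, from Feature Extraction 9.5.3.1 (mean signal, local background, processed signal and flags), not normalized between arrays. The authors also deposited log2 values, which their methods describe as normexp corrected and quantile normalized, with neither the offset nor the rule behind empty rows stated. These held 24008 rows with values, including 17 of the 19 member probes, with column medians of 10.37 and r of at least 0.9998 across probes with the values computed here, and served as an alternative.

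The steps the methods name were applied to the scanner files with limma 3.58.1 (R 4.3.3): normexp on all spots (offset 50, set here), removal of control spots (43020 left), quantile normalization on the log2 scale, removal of outlier spots and averaging by probe. Probes well above background on at least 2 arrays (27229 of 39429) were tested with lmFit and eBayes, two-sided, genotype as the only term, with Benjamini-Hochberg adjustment over them and a threshold of 0.05. With 2 residual degrees of freedom the prior added 2.62. An offset understates changes of dim probes, and the number of arrays limits precision. A gene dim in 1 group is given as "at least": its mean in the bright group over the dim group's mean of the higher of its own value and the lowest value well above background on that array. Probe coordinates are on mm9, and list genes were matched by the name in the files or an older name from the GRCm38.p6 RefSeq table, which also gave the promoter windows. Levels of different genes were not compared, except to name the marker behind most of a sum or of its difference between arrays. Probes of the same gene were set side by side only for the change of their gap between groups, and levels were summed only over marker lists.

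The members, lists, motifs and tests were chosen with earlier results of these data known. Named were all members, in each list the 3 highest and 3 lowest genes past the threshold that were well above background on all arrays, all genes behind counts of 5 or fewer, Pak1 as a check, and the 3 genes nearest to each member that changed at least 2-fold. Other list and marker genes named were chosen after their values were seen. Alternatives were the offset (16 and 0), 75th percentile scaling of the processed or normexp values, cyclic loess, the authors' table, the filter (all 4 arrays, or none), the mean over probes, naming by accession, stricter thresholds, each sample left out, and the replicate number as a block. Some genes that these rules name are not reported here. No set test was run.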

Additional observations from a re-analysis of the deposited data

How the results depend on the processing

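The calls of Rhob, Rhoc, Rnd1, Rnd3, Rock2 and Arhgdib kept direction and threshold under all 15 alternatives to the values. Naming by accession, among these, found no further member probe and reused the main fit, so it could not change a member's value. Rhob ran from 0.57 to 0.86, Rhoc from 1.34 to 1.66, Rnd1 from −0.94 to −0.82, Rnd3 from 2.41 to 2.83, Rock2 from −1.10 to −0.86 and Arhgdib from −3.91 to −2.82. Rhoa changed sign under cyclic loess (0.062). Arhgdia passed with the processed values (−0.42) or the normexp values (−0.41) under 75th percentile scaling, and as the mean over its probes (−0.24). Rock1 lost its call in 3 of 4 leave-one-out fits, in which it ran from −0.64 to −0.37. Lists fared as follows: leave-one-out fits gave 16 to 23 lower pathway genes where 25 were counted. An adjusted p under 0.01 left 15 lower pathway genes and 8878 probes in all. An added 2-fold requirement left 2 lower members, 15 higher and 6 lower pathway genes and 3413 probes, of 14132, and both are stricter by construction. The replicate numbers did not pair the samples (r = −0.028 between the replicate differences of the groups, across probes). With the replicate block, 3 members were higher and 4 lower, 13211 probes passed, and no call of a member changed. Under cyclic loess, 52.4% of the probes past the threshold were higher, against 44.9%, with 48 higher and 22 lower pathway genes. Of the values of named pathway genes under alternatives, 536 kept direction and threshold and 19 lost the threshold. Other causes were not tested. Signal over background limited Dlc1, Cd52, Cnn1 and the dim Arhgdia probe, among others.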
